A study of Mus musculus with 4 samples.

Results

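Long genes with RUVBL2 at one of their ends were examined in chromatin of the mouse hypothalamus. A region was counted as shared when peaks of the 2 RUVBL2 ChIP libraries overlapped by at least 1 bp, and it belonged here when its midpoint lay within 1 kb of an end of exactly 1 protein-coding gene and that gene was 100 kb or longer. Of 3111 shared regions, 258 met this rule, at 256 genes. They are compared with the 2427 protein-coding genes of this length and with the 1771 regions found in the same way at 1766 shorter genes. The tissue came from WT male mice of strain C57BL/J (as the labels write it), aged 8 weeks, fixed in 1% formaldehyde. The 4 libraries of the study were 2 RUVBL2 ChIP libraries and 2 input libraries; only the peak lists of the ChIP libraries, 3943 peaks in replicate 1 and 6403 in replicate 2, were analysed. Peak names in the list of replicate 2 begin with Hyp3 while that sample's title begins with Hyp2, so which preparation that list stems from is uncertain. The labels do not say whether the replicates came from separate animals, and the chromatin was that of the whole hypothalamus and not of sorted cells.

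RUVBL2 is an AAA+ ATPase that forms ring-shaped assemblies with its partner RUVBL1. The pair is part of the INO80, SRCAP and TIP60 complexes, which move or modify nucleosomes, and of chaperone complexes that build large protein assemblies. Very long genes are typical of neurons: many encode adhesion molecules, channels and synaptic proteins, and their transcription by RNA polymerase II takes much longer than that of a short gene. Other long genes encode large proteins that nearly every cell uses, such as ubiquitin ligases, chromatin enzymes and regulators of the cytoskeleton. Starts of widely used genes commonly lie in CpG islands, stretches in which the dinucleotide CG has not been depleted.

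The bases just before the start show what kind of sequence lay at these regions. The first 5 are among the best-ranked members with a known strand and a region that holds the listed start. For each, at least 200 bases lie before the gene. Not all chromosomes were considered in this choice, so a better-ranked member can be missing. Igf1r and Dlg1 follow as members of interest. All are RefSeq sequences of GRCm38.p6, 5′ to 3′ on the strand of the gene, limited to bases outside the annotated gene. Capitals mark every match, on either strand, to the motifs searched: the GC box (GGGCGG), the CCAAT box, the ETS site (CCGGAAG) and the E-box (CACGTG). Also searched were the short CRE (TGACGT, which lies inside the full CRE), the NRF1 core (GCATGCGC), the YY1 core (AAGATGGC) and the TATA box (TATAAA).
Nrf1: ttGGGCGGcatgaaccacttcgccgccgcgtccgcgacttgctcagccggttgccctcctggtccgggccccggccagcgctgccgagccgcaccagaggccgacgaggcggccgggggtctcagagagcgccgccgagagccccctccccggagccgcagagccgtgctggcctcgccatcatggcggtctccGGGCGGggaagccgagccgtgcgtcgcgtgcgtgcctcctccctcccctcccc
Arhgap35: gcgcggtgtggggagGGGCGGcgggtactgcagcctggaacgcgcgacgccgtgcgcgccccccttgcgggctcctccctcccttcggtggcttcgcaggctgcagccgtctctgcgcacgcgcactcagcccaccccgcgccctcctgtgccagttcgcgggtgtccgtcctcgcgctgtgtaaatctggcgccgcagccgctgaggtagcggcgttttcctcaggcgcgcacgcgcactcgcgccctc
Atp2b1: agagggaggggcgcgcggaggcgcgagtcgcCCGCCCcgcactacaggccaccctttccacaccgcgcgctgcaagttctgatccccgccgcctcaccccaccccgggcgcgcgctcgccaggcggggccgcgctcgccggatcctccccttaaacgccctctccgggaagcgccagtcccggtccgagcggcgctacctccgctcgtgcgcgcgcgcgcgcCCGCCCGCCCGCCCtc
Specc1l: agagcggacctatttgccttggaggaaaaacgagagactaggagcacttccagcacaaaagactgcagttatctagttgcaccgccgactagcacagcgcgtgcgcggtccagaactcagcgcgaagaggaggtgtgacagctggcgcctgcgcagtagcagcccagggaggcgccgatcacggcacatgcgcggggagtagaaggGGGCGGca
Ptpra: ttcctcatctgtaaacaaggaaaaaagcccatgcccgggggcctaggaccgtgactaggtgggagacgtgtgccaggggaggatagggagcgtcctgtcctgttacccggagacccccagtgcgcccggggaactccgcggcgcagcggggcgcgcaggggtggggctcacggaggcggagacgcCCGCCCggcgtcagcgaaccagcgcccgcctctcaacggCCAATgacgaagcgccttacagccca
Igf1r: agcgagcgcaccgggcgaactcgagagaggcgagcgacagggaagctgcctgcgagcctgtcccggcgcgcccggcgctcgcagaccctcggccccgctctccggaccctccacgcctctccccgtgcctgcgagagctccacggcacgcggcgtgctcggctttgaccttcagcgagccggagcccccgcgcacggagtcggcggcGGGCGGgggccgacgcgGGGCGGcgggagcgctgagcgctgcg
Dlg1: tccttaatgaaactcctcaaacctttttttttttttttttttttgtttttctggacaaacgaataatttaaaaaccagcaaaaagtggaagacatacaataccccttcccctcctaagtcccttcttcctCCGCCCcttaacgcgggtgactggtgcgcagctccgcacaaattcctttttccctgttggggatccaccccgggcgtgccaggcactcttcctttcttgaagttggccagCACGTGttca

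These stretches lie at chr6:30047738-30047984, plus strand (Nrf1), chr7:16614994-16615243, minus strand (Arhgap35), chr10:98914392-98914629, plus strand (Atp2b1), chr10:75211823-75212036, plus strand (Specc1l), chr2:130450028-130450277, plus strand (Ptpra), chr7:67952007-67952256, plus strand (Igf1r) and chr16:31663193-31663442, plus strand (Dlg1). The shared region covered all 247 printed bases of Nrf1, all 238 of Atp2b1 and all 250 of Ptpra and Igf1r. It covered 146 bases of Arhgap35 and 115 of Specc1l, and at Dlg1 it began after the start. The stretch of Atp2b1 holds 41 CG dinucleotides and that of Igf1r 42, against 9 in Dlg1. The number of GC box matches was 2 in Nrf1, 4 in Atp2b1 and 2 in Igf1r. The only CCAAT match in these stretches was 1 in Ptpra, 26 bases before its listed start. For contrast, the same window is shown for Cntnap2 (chr6:45059811-45060060, plus strand), a neuronal adhesion gene, and Rbfox1 (chr16:5884543-5884792, plus strand), a neuronal splicing factor; both are far over 100 kb and had no peak of either library within 1 kb of an end.
Cntnap2: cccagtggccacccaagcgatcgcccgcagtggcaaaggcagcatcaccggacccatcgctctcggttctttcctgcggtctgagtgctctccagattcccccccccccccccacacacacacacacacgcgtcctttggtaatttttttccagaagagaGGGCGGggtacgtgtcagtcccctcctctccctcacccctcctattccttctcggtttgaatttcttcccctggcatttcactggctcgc
Rbfox1: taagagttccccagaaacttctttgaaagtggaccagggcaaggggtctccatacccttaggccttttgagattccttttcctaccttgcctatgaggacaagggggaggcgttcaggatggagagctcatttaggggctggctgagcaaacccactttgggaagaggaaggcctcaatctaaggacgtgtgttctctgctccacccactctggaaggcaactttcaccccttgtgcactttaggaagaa

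The Cntnap2 window holds 13 CG dinucleotides and 1 GC box, and the Rbfox1 window 2 CG dinucleotides and none of the motifs. These genes do not stand for all long genes without a region. Macrod2, also without a peak at an end, held 33 CG dinucleotides in a longer window of 300 bases around its start. A match to these letters is a description of the sequence and was not tested as a binding site.

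The share of genes with a region was higher in each length class up to 100 kb and lower in each class beyond it. Of the genes of 100 kb or longer, 256 of 2427 (10.5%, 95% interval 9.35 to 11.8) held a shared region at an end that belonged to no other gene, against 9.13% of 19352 shorter genes and 9.28% of all 21779 protein-coding genes. Within the long genes, 192 of 1437 genes from 100 to 200 kb did so (13.4%, 11.6 to 15.2), 54 of 763 genes from 200 to 500 kb (7.08%, 5.36 to 9.13) and 10 of 227 genes of 500 kb or more (4.41%, 2.13 to 7.95). The class just below, from 50 to 100 kb, held a region in 381 of 2508 genes (15.2%, 13.8 to 16.7), and genes under 5 kb in 194 of 4977 (3.90%). The intervals are exact Clopper-Pearson 95% intervals that treat genes as independent; with regions of 1 pair of libraries, no test between length classes was made. The rule of exactly 1 gene lowers the share most, in proportion, for genes under 5 kb (7.35% without it): with 1 or more genes allowed in the window, 12.8% of long and 14.1% of shorter genes held a region, so that long genes were then the lower of the pair.

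**Figure D1:**
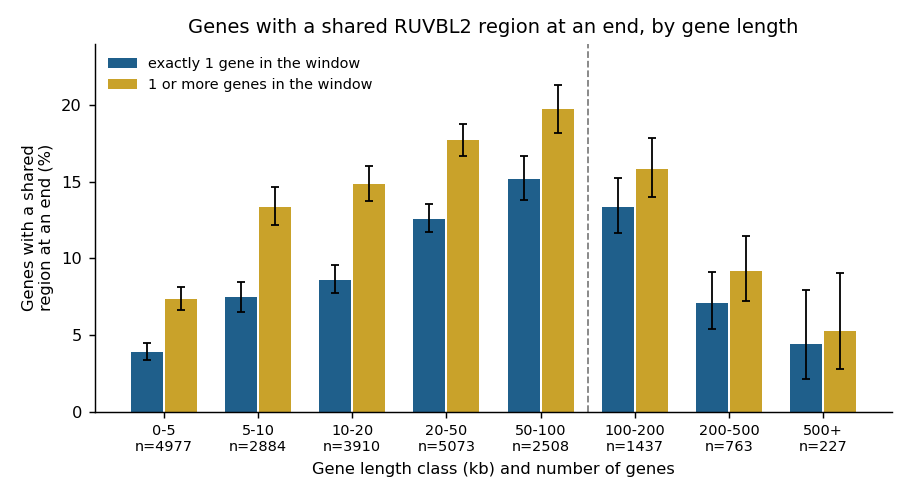
Percentage of protein-coding genes whose end lay near a shared region (1 kb window), by gene length class in kb, with the number of genes under each class. Blue bars require that the window holds an end of exactly 1 gene and gold bars allow several; error bars are exact 95% intervals, the dashed line marks 100 kb, and the blue bars reach 15.2% at 50 to 100 kb and 4.41% at 500 kb or more.

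All 2427 long genes can be placed. Beside the 256 genes of these regions, 54 held a shared region that lay within 1 kb of an end of another protein-coding gene too. The other genes were classed by whether the midpoint of a peak lay within 1 kb of an end. This held in replicate 2 alone for 354 genes (14.6%) and in replicate 1 alone for 105 (4.33%). It held in both lists, without a shared region at that end, for 6. A peak of 1 list so classed can still overlap a peak of the other list. Epc2 is in the replicate 1 class, yet it held a shared region with its midpoint 1048 bp from the gene end. The remaining 1652 (68.1%) had no peak midpoint of either list within 1 kb of an end. The end peaks of the 105 and 354 genes had a median fold enrichment of 4.62 in replicate 1 and 4.39 in replicate 2. Their median summit pileups were 14 and 18 reads, below the members' medians of 16 and 22 reads. Of the 113 long genes on chromosome X, 0 held a region, which allows a share of up to 2.65%; these male mice carry a single X, whose part in the count was not tested. On the autosomes the share ran from 6.25% of the long genes of chromosome 3 to 14.7% of those of chromosome 17.

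Where the strand was known, every region lay at the 5′ end of its gene. RefSeq start sequences gave the strand for 204 of the 258 regions, and 204 of 204 (95% interval 98.2 to 100) were at the 5′ end, although the rule treats both ends alike. At shorter genes the count was 1433 of 1443 (99.3%), with 10 regions at the 3′ end. The midpoint lay inside the gene in 171 of these 204 regions (83.8%, 78.04 to 88.6) and before it in 33. The median midpoint was 247.5 bp inside the gene, with the middle 50% of regions between 66.2 and 446.5 bp, against a median of 170 bp at shorter genes. Within 250 bp of the annotated end lay 46.1% of the regions at long genes (39.9 to 52.4) and 62.7% of those at shorter genes (60.4 to 65). A start that is listed in RefSeq within 1 kb of the 5′ end was available for 192 regions, and 145 of them (75.5%) contained it.

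**Figure D2:**
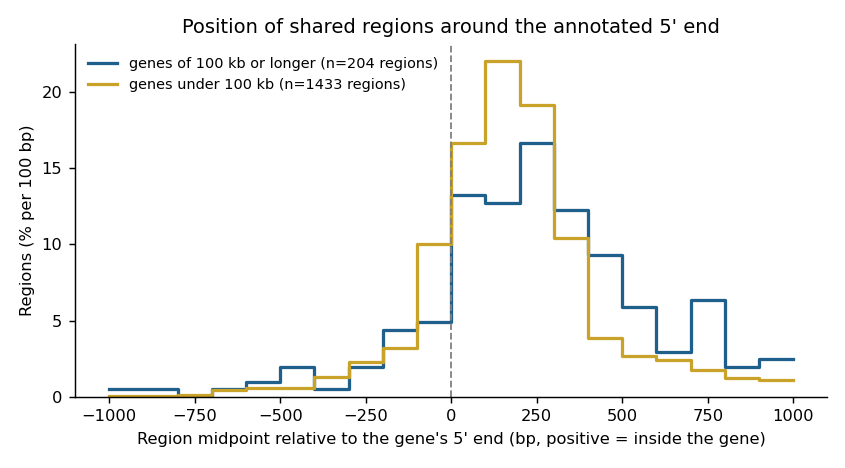
Position of shared regions around the annotated 5′ end, as the share of regions (%) in bins of 100 bp; positive positions lie inside the gene. The blue line is the 204 regions at long genes with known strand and the gold line the 1433 regions at the 5′ end of shorter genes; the blue line is the broader, with a median of 247.5 bp against 170 bp.

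Nsd3 and Scai were the long genes with a shared region at both ends. At Nsd3, which encodes a histone H3 lysine 36 methyltransferase, the folds were 4.53 and 3.23 in replicates 1 and 2 at the end with the lower coordinate, and 4.01 and 4.34 at the other end. At Scai, which encodes a regulator of transcription, they were 4.93 and 4.63 at the 5′ end and 3.34 and 4.23 at the 3′ end. The second region of each gene also lay within 1 kb of another gene. Dyrk1a, a kinase gene, and Gsk3b, which encodes a kinase of Wnt and insulin signalling, each held 2 regions at the same end. The stronger Dyrk1a region lay 15 bp inside the gene (folds 9.25 and 10.4) and the weaker 912 bp before it (4.62 and 6.03). At Gsk3b one lay 466 bp before the start (4.37 and 3.79) and the other 788 bp inside (4.88 and 3.83).

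Fold enrichment here is the authors' value for the highest peak of each list in a region: the summit pileup over the background that the peak caller estimated, with 1 added to each. The median was 4.93 in replicate 1 (range 3.09 to 11.1) and 5.14 in replicate 2 (2.34 to 11.3), against 5.04 and 5.42 at shorter genes. The median summit pileup was 16 reads in replicate 1 and 22 in replicate 2, against 17 and 26 at shorter genes. The median background was 2.24 reads in replicate 1, equal to the lowest, and 3.25 in replicate 2. The median width was 716.5 bp (356 to 1712), against 697 bp. In the top 1000 peaks of both lists were 31 of the 258 regions (12%, 8.31 to 16.6), against 17.1% of those at shorter genes (15.4 to 18.9). The strongest regions were at shorter genes: the highest folds at long genes were 11.1 and 11.3, while at shorter genes these reached 17.3 and 34.5. No test of these differences was made.

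Members were ordered by their lower placing in either list, and Ahi1 came first: it is a gene of the primary cilium mutated in Joubert syndrome. Its region (chr10:20951942-20952885) had folds of 8.63 (5.79 to 12.4, a 95% counting interval) and 11.3 (8.47 to 14.8) in the first and second library. Nrf1, which encodes a transcription factor of nuclear genes for mitochondrial proteins, came next (chr6:30047496-30049207), with 11.1 (7.81 to 15.3) and 11.2 (8.11 to 15.2); at 1712 bp its region was the widest of all members. Cep350, a centrosome protein, had 7.49 and 11.0. Dyrk1a followed (chr16:94569494-94570430), and then Cdc42bpa, a kinase that acts downstream of CDC42, with 8.94 (6.04 to 12.8) and 9.50 (6.66 to 13.2). In these 5 genes the 2 libraries gave values whose counting intervals overlapped.

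The next members by rank encode regulators of several kinds. Rbm33, an RNA-binding protein, had folds of 7.40 and 10.3. Ppp6r3, a subunit of protein phosphatase 6, had 7.40 and 7.91, and Tdrd3, a Tudor protein that binds topoisomerase 3β, 7.56 and 9.24. Arhgap35, the RhoGAP p190, had 7.28 and 10.8, and Rab30, a small GTPase of the Golgi, 7.56 and 8.71. Ccdc88a, the actin-binding protein girdin, had 6.78 and 8.41, Ccny, a membrane-bound cyclin, 7.07 and 8.09, Nsd1, a histone H3 lysine 36 methyltransferase, 8.32 and 8.03, and Neo1, the receptor neogenin, 6.78 and 7.98. Atp2b1, a calcium pump of the plasma membrane, Specc1l, a cytoskeletal protein, and Ptpra, a receptor tyrosine phosphatase, shared the next rank, with 6.47 each in replicate 1 and with 7.46, 10.4 and 9.42 in replicate 2. Of these genes, none reaches 210 kb; Cdc42bpa, at 205.5 kb, is the longest.

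**Figure D3:**
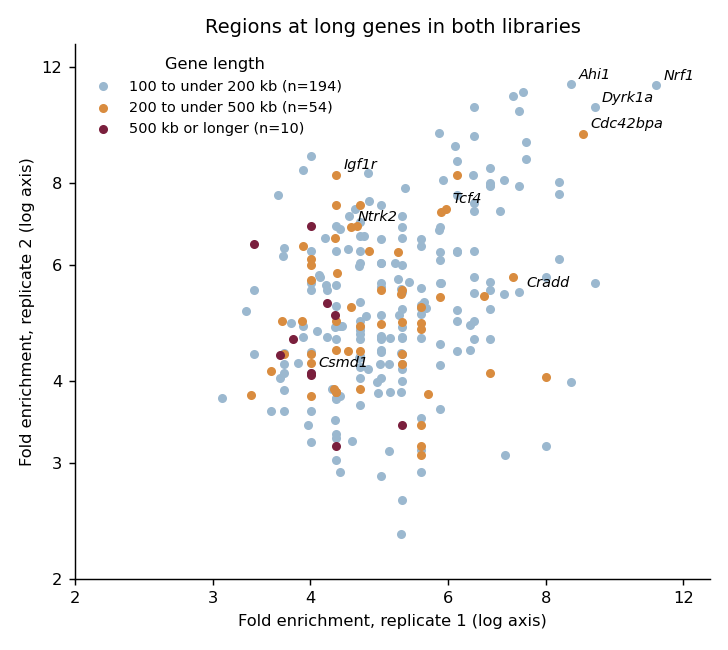
Fold enrichment over background of the 258 regions at long genes in replicate 1 (x) and replicate 2 (y), both on log axes, coloured by gene length; each point is a region. Ahi1, Nrf1, Dyrk1a and Cdc42bpa lie at the upper right, and the 10 regions at genes of 500 kb or longer lie at folds of about 3 to 7 in both libraries.

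The libraries ranked the members loosely alike. Across the 258 regions, Pearson's r of the folds was 0.45 and Spearman's rho 0.31, as a description of 1 pair of libraries whose regions all passed a threshold in both; at the 1771 shorter-gene regions they were 0.52 and 0.35. Single members could differ: Ank, a pyrophosphate transporter, had folds of 8.01 and 3.19, and Acvr1, a BMP receptor, 4.01 and 8.78; these 2 were chosen after their values were seen, as the ends of the range. Summits of the libraries lay a median of 116 bp apart at long genes and 89 bp at shorter ones. Longer genes had slightly lower folds: the median fold went from 5.05 and 5.17 (replicates 1 and 2) in 194 regions at genes of 100 to 200 kb, through 4.62 and 4.94 in 54 regions at 200 to 500 kb, to 4.01 and 4.51 in 10 regions at 500 kb or more. Spearman's rho between gene length and fold was -0.18 for the first library and -0.10 for the second.

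The longest members were led by Csmd1, a gene of 1643 kb for a complement-regulating transmembrane protein of neurons. Its region lay 13 bp from the gene end (chr8:17535089-17535706) and had folds of 4.01 (2.22 to 6.77) and 4.11 (2.37 to 6.72) on pileups of 12 and 14 reads. Ctnnd2, which encodes the synaptic protein δ-catenin, had 4.01 and 4.08, and Adgrl3, a latrophilin adhesion receptor, 4.31 and 5.03. Mdga2, an inhibitor of synapse formation, had 3.39 and 6.46. Kcnma1, which encodes the BK potassium channel, had 5.24 and 3.43. Foxp1, a transcription factor, had 4.01 and 6.86, and the trafficking genes Vps13b and Lrba had 4.20 and 5.24, and 3.79 and 4.63. These 8 genes ran from 559 kb (Lrba) to 1643 kb, and none of their regions was among the top 1000 peaks of both lists.

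Grouped by function, ubiquitin genes held regions most often among the 18 lists examined. The lists were chosen with earlier results of these data known, so their order is a description only. The lists name 953 genes, of which 656 are 100 kb or longer; 90 of these held a region, and the other 166 member genes were in no list. Of 40 long genes for ubiquitin ligases, conjugating enzymes and deubiquitinases, 18 held a region (45%, 95% interval 29.3 to 61.5), beside 10.5% of all long genes. Usp24, a deubiquitinase, had folds of 8.32 and 7.68, and Birc6, a giant ligase that restrains apoptosis, 5.84 and 6.78. Among the others were Cblb, Fbxw7, Fbxw11, Herc2, Klhl2, Mycbp2, Rnf130, Smurf2, Trim44, Ube3c, Ubr1, Ubr3, Usp25 and Wwp1. The median folds over the 18 genes were 5.12 and 5.41, close to those of all members. Ubr4, a further ligase of the N-degron family (6.16 and 6.28), stood in the trafficking list. Counting the libraries one by one, 19 of the 40 genes had a peak at an end in replicate 1 and 24 in replicate 2, beside 17.2% and 27.5% of all long genes.

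Chromatin regulators came next, with 12 of 41 long genes (29.3%, 16.1 to 45.5). Nsd1 led them, followed by Ncor1, a corepressor that recruits histone deacetylase 3 (7.0 and 7.26), and Ehmt1, a histone H3 lysine 9 methyltransferase (4.62 and 5.97). The others were Chd6, Crebbp, Ep400, Jarid2, Kat6b, Kmt2c, Nsd3, Phf21a and Smarcc1; Ep400 is the ATPase of a TIP60-type complex that contains RUVBL2 itself. Allowing 1 or more genes in a window of 3 kb, 21 of the 41 chromatin genes (51.2%) and 19 of the 40 ubiquitin genes (47.5%) held a region, beside 14.5% of all long genes. Of 61 long genes on the transcription factor list, which also holds coactivators, 6 held a region at an end by the main rule (9.84%, 3.70 to 20.2). These were Tcf4, a bHLH factor (5.96 and 7.30), Ncoa2, a nuclear receptor coactivator (5.88 and 7.21), Cux2, a homeobox factor (4.93 and 7.41), Cux1, Foxp1 and Prdm2. By single library, 10 (16.4%) of the transcription factor genes in replicate 1 and 14 (23.0%) in replicate 2 did, close to the 14.5% and 23.4% of all long genes. Of 29 long RNA-binding genes, 3 held a shared region (10.3%, 2.19 to 27.4), beside 10.5% of all long genes. Among them were Tnrc6c, a scaffold of microRNA silencing (5.35 and 5.65), and Zcchc7 (8.63 and 3.98), a zinc knuckle protein. These counts leave out regions inside genes. A further 10 of the 41 chromatin, 8 of the 61 transcription factor and 5 of the 29 RNA-binding genes held a shared region in the interior only. Of all long genes, 4.53% held an interior region, with or without one at an end.

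Genes of trafficking, signalling and the cytoskeleton held regions in shares from 13.9% to 21.1%, beside 10.5% of all long genes. The intervals of all but the trafficking list include that 10.5%, and no test was made. Several of these counts were over 1.5 times as high with 1 library. Of 57 long trafficking genes, 12 held one (21.1%, 11.4 to 33.9), led by Dennd5b, an activator of Rab GTPases (6.78 and 7.92), Ubr4 and Tbc1d22a, a Rab GTPase-activating protein (6.67 and 5.38). Of 80 long cytoskeleton genes, 13 did (16.2%, 8.95 to 26.2), with Dock9, an activator of CDC42 (6.16 and 8.23), and Arhgef12, an activator of RhoA (6.47 and 7.25), after Cdc42bpa. Of 72 long genes for kinases, phosphatases and second messengers, 10 did (13.9%, 6.87 to 24.1); after Dyrk1a these were led by Ppp2r5e (6.78 and 5.65), a subunit of protein phosphatase 2A, and Ppp1r12a (5.23 and 5.51), the targeting subunit of myosin phosphatase. By single library, 19 kinase-list genes (26.4%) in replicate 1 and 23 (31.9%) in replicate 2 did, beside 14.5% and 23.4% of all long genes. The cytoskeleton counts were 17 (21.2%) and 31 (38.8%), those of trafficking 17 (29.8%) and 20 (35.1%). Of 28 long receptor and ligand genes of growth factors and hormones, 5 held a shared region (17.9%, 6.06 to 36.9). These were Lrp6, a Wnt coreceptor (6.16 and 8.63), Ntrk2, the BDNF receptor that acts in satiety (4.51 and 6.86), Igf1r (4.32 and 8.23), Acvr1 and Ghr, the growth hormone receptor.

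Lists of neuronal membrane proteins, which hold many of the longest genes, had shares from 0 to 5.80%; their intervals include the 10.5% of all long genes, and no test was made. Of 69 long genes for adhesion molecules and synapse organisers, 4 did (5.80%, 1.60 to 14.2): Cdh2, which encodes N-cadherin (5.23 and 5.43), Adgrl3, Csmd1 and Ctnnd2. Of 43 channel genes, Kcnma1 did (2.33%, 0.0589 to 12.3), of 32 axon guidance genes, Plxna4 (4.32 and 4.94), and of 26 glutamate receptor and scaffold genes, Dlg1. The Dlg1 region (chr16:31663554-31664258) had folds of 4.62 (2.67 to 7.55) and 4.84 (3.14 to 7.16). Of 12 long genes of GABA and glycine transmission, 0 did, which allows up to 25%. Of these 12, Gphn and Gabrb1 held a shared region in the gene interior, 241 and 865 bp from a listed start. Genes of presynaptic release held more, with 4 of 24 (16.7%, 4.74 to 37.4): Stxbp5, the SNARE regulator tomosyn (5.24 and 6.58), Nsf, the ATPase that disassembles SNARE complexes (6.40 and 4.87), Erc1, an active zone protein (3.92 and 6.40), and Snap91, a clathrin adaptor of synaptic vesicles (4.93 and 4.68). In the replicate 2 list, 11 of the 24 presynaptic genes (45.8%) and 13 of the 69 adhesion genes (18.8%) had a peak at an end, beside 27.5% of all long genes. In the replicate 1 list the counts were 5 (20.8%) and 7 (10.1%), beside 17.2%.

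Lists of glial and vascular genes held 1 region in all. Slc44a1, a choline transporter on the oligodendrocyte list, had a fold of 5.23 in replicate 1 and of 2.34 in replicate 2, the lowest of all members there, on a background of 10.6 reads. Of 9 long astrocyte markers, 14 microglia markers and 13 endothelial and mural markers, 0 held a region, which allows up to 33.3%, 21.4% and 23.1%. These limits lie above the 10.5% of all long genes, so the counts of 0 do not show a lower share. In the replicate 2 list, 2 astrocyte, 2 microglia, 2 of 14 oligodendrocyte and 0 endothelial and mural genes had a peak at an end. The share of all long genes in that list was 27.5%. The peaks cannot show how many cells of a type carried RUVBL2, and a region used in a small share of the cells may not reach the threshold.

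**Figure D4:**
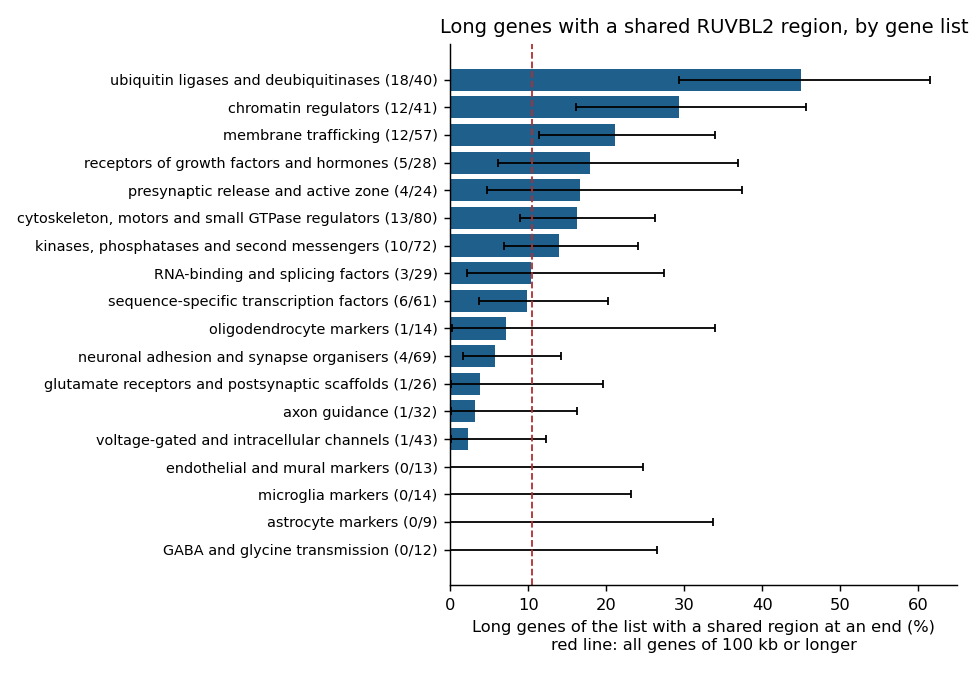
Share of the long genes of each list (%) that held a shared region at an end belonging to that gene only, with exact 95% intervals as error bars and the counts in brackets. The red dashed line is the 10.5% of all genes of 100 kb or longer; the ubiquitin list stands at 45% and 4 lists at 0.

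Gene length and CpG content differed between these lists, and their part in the counts was not tested. The median length of the long genes was 141 kb in the ubiquitin list, 142 kb in the chromatin list, 364 kb in the channel list and 767 kb in the adhesion list. Among genes of 100 to 200 kb only, 17 of 30 ubiquitin and 11 of 33 chromatin genes held a region, beside 13.4% of all genes of that length. Of the adhesion, guidance, glutamate receptor and channel genes of that length (5, 11, 4 and 11 genes), 0 did. Most genes of these lists are longer: at 200 kb or more, 4 of 64 adhesion genes (6.25%), 1 of 21 guidance genes, 1 of 22 glutamate receptor genes and 1 of 32 channel genes held a region, beside 64 of all 990 genes of that length (6.46%). The adhesion share was thus near that of all genes of its length. Only among starts with a CpG observed to expected ratio of 0.6 or more, 14 of 24 ubiquitin, 9 of 21 chromatin, 1 of 18 adhesion and 1 of 14 channel genes held a region, beside 175 of 992 long genes (17.6%, 15.3 to 20.2) with such a start.

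Members had CpG-rich starts more often than long genes in general. In the RefSeq windows from 250 bases before to 50 after the start nearest the 5′ end, available for 190 member genes and 1490 long genes, the median CpG observed to expected ratio was 0.90 for members, against 0.63 for the 923 long genes with no peak at an end and 0.86 for 1413 shorter genes with a region. The median GC content was 69.7% for members, 60% for long genes with no peak and 63.3% for shorter genes with a region. The windows of members held a median of 32 CG dinucleotides, against 16 and 25. A ratio of 0.6 or more was found at 175 of the 190 member genes and at 992 of the 1490 long genes (66.6%). At starts below the ratio of 0.6, 15 of 498 long genes held a region (3.01%, 1.70 to 4.92), and 137 of 7547 shorter genes (1.82%). At starts above it, 17.6% of long and 19.0% of shorter genes did. The ratio was taken as a usual limit for CpG islands and was added after the data were seen.

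**Figure D5:**
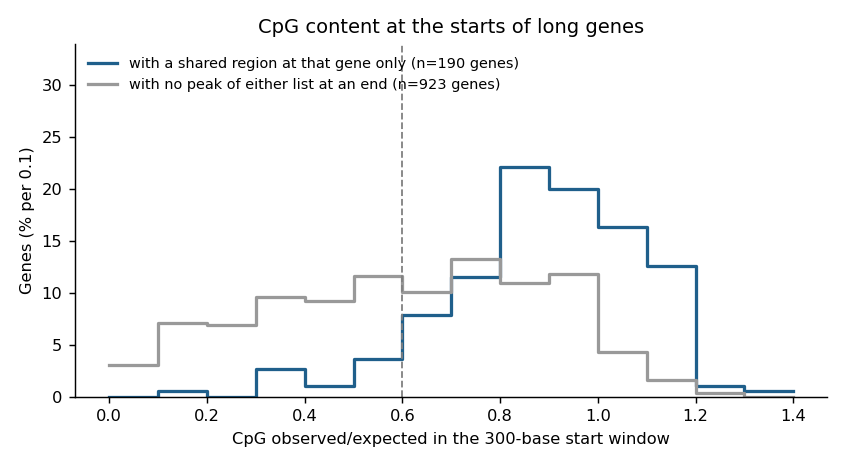
CpG observed to expected ratio in the 300-base window around the start of long genes, as the share of genes (%) in steps of 0.1. The blue line is the 190 genes with a region and the grey line the 923 genes with no peak at an end; the dashed line marks 0.6, and the blue line lies to the right, with a median of 0.90 against 0.63.

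The windows differed in motifs along with base composition. A GC box (GGGCGG on either strand), the site of SP-family factors, was found in 79.5% of the 190 member windows, beside 73.2% of the windows of shorter genes with a region, 63.1% of all 1490 long-gene windows and 46.7% of 15752 windows of all protein-coding genes; its letters are all G and C, and the member windows were richer in both. A CCAAT box, the letters bound by NF-Y, was found in 22.6% of member windows (43 of 190), beside 32.9% of long genes, 36.2% of shorter genes with a region and 39.4% of all genes. The NRF1 core (GCATGCGC) was in 14 windows (7.37%) and the YY1 core (AAGATGGC) in 14, beside 6.94% and 9.34% of shorter genes with a region and 3.73% and 3.28% of all genes. Counted only before the start, the YY1 core was in 2.63% of member windows, 3.26% of those of shorter genes with a region and 1.52% of all. YY1 is a subunit of INO80. The ETS site was in 14.7% of member windows, 20.9% of those of shorter genes with a region and 12% of all, and the full CRE (TGACGTCA) in 2.63%, 4.67% and 2.38%. A TATA box was in 3.68% of member windows and 13.7% of all. No test was made of these shares, and where the letters were absent nothing follows for the factor.

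Genes of interest to appetite and excitatory transmission were looked up whether or not they held a region. The Ntrk2 region (chr13:58806499-58808122) had its midpoint 839 bp inside the gene and folds of 4.51 (2.77 to 6.98) and 6.86 (4.49 to 10.1). The Igf1r region (chr7:67950837-67952298) had its midpoint 689 bp before the gene, with folds of 4.32 (2.44 to 7.16) and 8.23 (5.6 to 11.7). Insr, the insulin receptor gene, had a peak 41 bp from an end in replicate 2 (fold 4.41), while the nearest peak of replicate 1 lay 213562 bp away. Gria4, an AMPA receptor subunit, had one 122 bp from an end in replicate 2 (4.11). Neither list had a peak within 100 kb of an end of Grin2a, Grin2b, Gria2, Grm5, Nrxn3, Nlgn1, Auts2, Rbfox1, Ank3 or Cntnap2. Dlg2 had peaks 47 and 30 bp from an end in the 2 lists (3.56 and 3.50), but that window held another gene as well. The nearest peak to Ank2 lay 1146 bp from an end in replicate 2. Of the 6 longest genes of all (Dmd, Ptprd, Cntnap2, Lsamp, Lrp1b and Macrod2, from 1998 to 2390 kb), none had a peak of either list within 1 kb of an end.

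Regions on both sides of the rule's limits had folds in the range of the members, apart from the replicate 2 fold of Epc2. Nsd1 (999 bp from the gene end), Sfmbt1 (974 bp) and Zhx2 (962 bp) were just inside 1 kb, while Atxn1 (1003 bp, folds 4.32 and 4.39), Bmpr2 (1026 bp, 3.70 and 3.47) and Epc2 (1048 bp, 10.6 and 12.1) were just outside. By length, Map2k4 (100115 bp, 3.39 and 5.49), Ndufs4 (100299 bp, 5.2 and 5.04) and Specc1l (100363 bp) were just inside 100 kb, and Rbm6 (99799 bp, 6.78 and 7.74), Cdc73 (99617 bp, 4.93 and 5.64) and Spred2 (99584 bp, 5.24 and 5.95) just under it.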

How the data were processed

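RUVBL2 ChIP-seq peaks of 2 libraries of mouse hypothalamus were used; the 2 input libraries were not analysed here. Tools listed in the submitters' processing notes are, by name, MACS2 2.1.0, Bowtie2 2.3.4.1, Trimmomatic 0.33, bcl2fastq 2.17 and ChIPseeker, with build GRCm38; their settings, and any control used in calling, were not stated in the labels or file headers. Peaks were deposited per library. Each has a fold enrichment ratio, a −log10 p, a −log10 q (lowest 1.32 and 1.34) and a score, all from the authors. Library depth is unknown, so summit pileups were solved from fold and −log10 p. Whole numbers matched at all 258 members (relative tolerance 0.0001). The solver also recovered 100% of 2000 pileups simulated with the same formula. That recovery checks the arithmetic only and cannot show that the formula holds for the deposited peaks. Fold intervals are exact Poisson 95% intervals of the pileup with the background fixed; intervals cover counting error only, since PCR reads are not independent molecules. A share of 0 is given the limit of 3 counts of the total.

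Genes are protein-coding rows of RefSeq on GRCm38.p6, without 108 rows that lie in the unsequenced 3 Mb at chromosome starts. Strand came from RefSeq start sequences, found for 76.9% of long genes; exon structure was not used. Named genes are the 15 members ranked highest in both lists by −log10 p (with ties), the 8 longest, up to 3 per list, those at the limits or with regions at both ends, 20 genes of interest (Lepr is under 100 kb) and the 6 longest genes; other names were added after their values were seen, and a few genes that the rule names are not reported here. The members and lists were chosen with earlier results of these data known. Alternatives varied the overlap, peak threshold, window, region position, number of genes allowed, gene length and library. Python 3.11.15, pandas 2.3.3, numpy 2.4.6 and scipy 1.17.1 were used.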

Additional observations from a re-analysis of the deposited data

How the results depend on the processing

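No paired analysis was possible because no values of the input libraries were used and no test compares groups. Of 174 alternative values, 117 were kept, meaning that a count stayed within 1.5 times and another value within its 95% interval; the rest moved. The share at the 5′ end stayed between 99.2% and 100% under the 13 settings tried for it. The number of regions moved to 102 at −log10 q of at least 5, 31 with the top 1000 peaks, 639 at 50 kb and 64 at 200 kb. The share of long genes moved to 8.20% (summits within 250 bp), 4.20% (−log10 q of 5), 1.28% (top 1000), 8.45% (window 500 bp), 12.8% (1 or more genes), 12.9% (50 kb) and 6.46% (200 kb); that of shorter genes to 7.67%, 4.46%, 1.57%, 8.66%, 14.1% and, at 50 kb, 8.22%. Long genes were thus above shorter ones as reported, with 50% overlap, with summits within 250 bp and with the mean summit as position. They were also above with a window of 3 kb, at 50 kb, with either library alone and without chromosome X. They were below at −log10 q of 5, with the top 1000 peaks, with a window of 500 bp, with 1 or more genes and at 200 kb. The intervals of long and shorter genes lay apart only with the 3 kb window, at 50 kb, at 200 kb and with 1 library alone. The median folds moved to 6.14 and 5.80 at −log10 q of 5 and to 6.78 and 8.23 with the top 1000, where lower folds were removed, and in replicate 1 to 4.51 at 200 kb; the width moved to 779 and 879 bp under the stricter thresholds. With 1 library alone there were 360 (replicate 1) to 579 (replicate 2) regions at 14.5% to 23.4% of long and 11.2% to 18% of shorter genes, with median widths of 421.5 to 514 bp, median folds of 4.76 and 4.66 and 123 to 181 listed genes; replicate 2 has the longer list. Without chromosome X, a setting added after the data were seen, 11.1% of long genes held a region. The cause of these moves was otherwise not tested. A median member rested on 16 reads in replicate 1 and 22 in replicate 2, and the part of library depth in the counts was not tested.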

Other observations

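Further shared regions lay inside long genes. In 110 of the 2427 long genes (4.53%, 3.74 to 5.44), 117 shared regions had their midpoint more than 1 kb from the end of any protein-coding gene, and 5 of these genes also held a member. In 73 of the 110 genes (66.4%) the interior region lay within 1 kb of another start that RefSeq lists for the same gene. The strongest were at Tnrc6a, a scaffold of microRNA silencing (folds 9.76 and 13.9, 299 bp from a listed start and 71112 bp from the nearer gene end), Eif4g3, a translation initiation scaffold (10.5 and 15.9), Hlcs, a biotin ligase (8.03 and 12.1), Epc2, a TIP60 subunit, and Phip (8.63 and 11.7). Also among them were Kansl1, a subunit of an acetyltransferase complex (7.64 and 9.76), Ino80, the ATPase of the INO80 complex (7.40 and 12.8, 122 bp from a listed start), Hdac4 (6.47 and 7.82), Chd2 (6.13 and 8.85) and Arid1b (5.86 and 7.96). All were chosen after their values were seen. Tnrc6a to Phip are the first 5 by rank, and the genes from Kansl1 on are chromatin genes picked from further down. Genes of other kinds with ranks between these were left out, such as Ankrd17 (7.07 and 8.33), Rnf220 (6.72 and 10.6) and Dpysl2 (9.86 and 6.42). With the regions at ends of 1 or more genes and those in the interior counted together, 414 long genes (17.1%, 15.6 to 18.6) held a shared region, and 89 of the 1652 genes with no peak at an end held one in the interior. The rule for gene ends therefore counts only part of the long genes with a region at a listed start. Genes with an interior shared region but none at an end numbered 10 in the chromatin and 8 in the transcription factor list. There were 5 each in the RNA-binding, kinase and trafficking lists, 4 in the cytoskeleton, 3 in the ubiquitin and 2 in the GABA and glycine list. The adhesion and receptor lists had 1 each and the other lists 0.

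Regions near both a long gene and another gene numbered 53. The first by rank lay between Slc10a7 and Rbmxl1 (folds 6.98 and 8.10), Camkmt and Prepl (6.42 and 7.88), and Elf1 and Wbp4 (5.98 and 7.96). Jmjd1c, a histone demethylase relative, shared one with Reep3 (5.86 and 7.67), and Ash1l, a histone methyltransferase, shared one with Dap3 (6.78 and 6.77).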
